A study of Rattus norvegicus with 64 samples.

Results

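The genes described are 10 genes of the hypoxia response and of glycolysis: Hif1a, Egln3, Vegfa, Slc2a1, Slc2a3, Hk2, Pfkfb3, Pfkfb4, Pgk1 and Ldha. They were taken by symbol, ignoring case, from whole-blood RNA-seq of rats. The symbols matched 12 of the 26405 gene rows found in any file, since Slc2a3 and Ldha each stand under a pair of Ensembl identifiers. Of these, 11 were among the 17366 rows present in every file, and all 11 passed the filter on low counts (at least 10 counts in at least 4 rats), which left 14111 genes to test. The remaining row, Ldha ENSRNOG00000048385, held 0 to 2 counts wherever it was listed, so Ldha below means ENSRNOG00000013009.

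Cells that lack oxygen stabilise the transcription factor HIF-1, whose alpha subunit is made from Hif1a. With oxygen present, prolyl hydroxylases such as the product of Egln3 mark that subunit for destruction, and Egln3 is itself a known target of HIF-1. HIF-1 also raises the growth factor Vegfa, the glucose transporter Slc2a1 and many enzymes of glycolysis, the pathway that makes ATP from glucose without oxygen. In blood, neutrophils and monocytes rely strongly on glycolysis, and mature red cells have no other source of ATP.

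Adult male Sprague-Dawley rats, 85 to 90 days old, received 4 injections spaced 2 h apart, and cardiac blood was drawn 3 h after the last. Saline was given at 22.5 °C (saline control, 6 rats), at 16 °C (saline cool, 5 rats) or at 39 °C (saline hyperthermic, labelled EIH, 16 rats). Amphetamine (AMPH) was given at 22.5 °C (AMPH hyperthermic, 22 rats) or at 16 °C (AMPH normothermic, 15 rats). AMPH was not given at 39 °C, and each rat gave a single library of globin-depleted RNA.

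Total counts ran from 19055615 to 40530319 per rat. A pair of saline controls (replicates 20 and 22) exceeded 5000 counts of Mb, the heart and muscle myoglobin, and were left out, which left 4 controls and 62 rats. The cut was applied to saline controls only. EIH replicate 12 (9909 Mb counts) and AMPH normothermic replicates 2 (19852) and 12 (12973) also exceeded it and were kept. The code carried by each file, taken here as its sequencing project, had 14 values, and saline cool rats came from 1 project and saline controls from 2. A fit with this project as a term is therefore given beside the main one. No project held both EIH rats and saline controls, and the project of the saline cool rats held 1 EIH and 1 AMPH normothermic rat. With the project as a term, differences between those groups are therefore wholly or mostly indirect, through other groups. Erythroid and neutrophil markers were abundant in every group, as their summed levels below show. Levels are given as CPM, counts scaled to a common library size with TMM factors. Among the 10 genes, 4 libraries stood apart. Saline control replicate 19 had the highest level of its group for all 10 genes and the highest neutrophil marker sum (15810 CPM), while AMPH hyperthermic replicate 17 had the lowest neutrophil sum of its group (1881 CPM) and lay at or near the level of the controls. Each of the pair thus lay toward the group of the other, whether their labels were exchanged was not settled here, and every comparison with the 4 saline controls rests on the labels as given. Values without the pair are printed beside the results they change, and since the pair stands apart in these same genes they are no independent support. AMPH hyperthermic replicate 21 and AMPH normothermic replicate 12 had almost no Pfkfb3, at 0.0465 and 0.429 CPM, against 4.31 or more in every saline rat. Those same libraries had erythroid marker sums of 355100 and 339000 CPM, the highest and the second highest of their groups. In a bulk library, fewer cells of a type and less RNA per cell cannot be told apart.

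Promoters are shown for the genes whose windows held the core of the HIF-binding element, since several of these genes moved together. The RefSeq promoter table (rat build GRCr8, 250 bases before to 50 bases after a gene's start) matched 8 of the 10 genes in 9 windows, and had no entry for Slc2a3 or Pgk1. The cores ACGTG and GCGTG were searched on both strands, so that the palindrome CACGTG counts as 2 matches of ACGTG. Either core was found in a window of 4 of the 8 genes, against 41.6% of 33469 promoters of that length. ACGTG was in 19.3% of them and GCGTG in 29.7%. The 250 bases before the start of the 4 genes are printed 5′ to 3′ on the plus strand, with the cores in capitals.
Ldha, chr1:106507842-106508091: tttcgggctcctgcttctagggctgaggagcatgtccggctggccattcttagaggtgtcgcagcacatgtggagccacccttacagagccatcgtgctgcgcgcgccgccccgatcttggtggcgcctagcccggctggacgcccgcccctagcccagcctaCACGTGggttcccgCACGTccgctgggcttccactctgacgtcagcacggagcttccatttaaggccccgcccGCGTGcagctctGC
Slc2a1, chr5:138002272-138002521: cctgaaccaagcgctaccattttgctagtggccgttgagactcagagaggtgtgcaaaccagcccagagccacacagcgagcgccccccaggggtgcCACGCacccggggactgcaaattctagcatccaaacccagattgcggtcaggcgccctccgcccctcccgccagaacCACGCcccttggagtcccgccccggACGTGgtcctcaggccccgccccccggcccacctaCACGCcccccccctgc
Hif1a, chr6:98359648-98359897: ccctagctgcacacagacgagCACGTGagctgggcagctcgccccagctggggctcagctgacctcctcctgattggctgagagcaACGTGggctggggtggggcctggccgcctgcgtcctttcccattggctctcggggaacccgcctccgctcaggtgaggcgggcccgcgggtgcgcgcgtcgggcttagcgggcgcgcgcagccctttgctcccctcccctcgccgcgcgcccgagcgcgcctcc
Pfkfb3, chr17:71944683-71944932: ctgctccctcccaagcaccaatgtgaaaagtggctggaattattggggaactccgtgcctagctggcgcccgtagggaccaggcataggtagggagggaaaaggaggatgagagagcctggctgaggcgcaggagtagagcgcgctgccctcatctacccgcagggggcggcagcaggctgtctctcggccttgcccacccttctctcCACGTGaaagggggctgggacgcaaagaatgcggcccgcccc
Ldha had 3 matches of ACGTG and 3 of GCGTG in its whole window, Slc2a1 had 1 and 3, and Hif1a and Pfkfb3 had 3 and 2 of ACGTG with 0 of GCGTG. Neither core was in the windows of Hk2, Egln3, Pfkfb4 or Vegfa. A match describes the letters of these windows only, and the split does not follow the expression results below, where Egln3, Vegfa and Hk2 rose against saline control and Pfkfb3 did not pass the test.

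In AMPH hyperthermic rats, 7 of the 11 rows were higher than in saline controls: Egln3, Hif1a, Vegfa, Slc2a1, Hk2, Pgk1 and Ldha. Their fitted rises ran from 2.43-fold (Hif1a and Pgk1) to 4.73-fold (Slc2a1). Across all genes tested, 11.2% were called at an adjusted p under 0.05 in that comparison (edgeR quasi-likelihood test, Benjamini-Hochberg adjustment). The median log2 fold change of the 11 rows was 1.66, against -0.001 over all genes. In EIH rats the same 7 rows were called higher than in saline controls, where the background was 24.7% and the median of the rows was 1.36 against 0.05. These comparisons share their 4 controls, so the lists are not independent of each other. Without saline control replicate 17, or without replicate 18, Egln3, Vegfa, Pgk1 and Ldha were called in AMPH hyperthermic rats (4 rows) and Egln3, Vegfa and Ldha in EIH rats (3 rows). In those fits 0.963% and 1.56% of all genes were called in AMPH hyperthermic rats, and 9.47% and 12.3% in EIH rats.

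The calls were fewer once the sequencing project was a term. Egln3, Vegfa, Hk2, Pgk1 and Ldha, or 5 rows, were then called in AMPH hyperthermic against saline control rats, beside a background of 2.32%. Hif1a (adjusted p = 0.0772) and Slc2a1 (adjusted p = 0.057) were no longer called, with log2 fold changes of 1.28 and 1.80 against 1.28 and 2.24 without the project. In EIH against saline control only 2 rows, Egln3 and Vegfa, were called with the project as a term, beside a background of 2.12%. No project held both of these groups, so the estimate is indirect, through the AMPH hyperthermic rats of the controls' projects. The same limit applies to every EIH against saline control value with the project below. All 10 positive log2 estimates of the main fit in the AMPH comparison stayed positive.

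**Figure D1:**
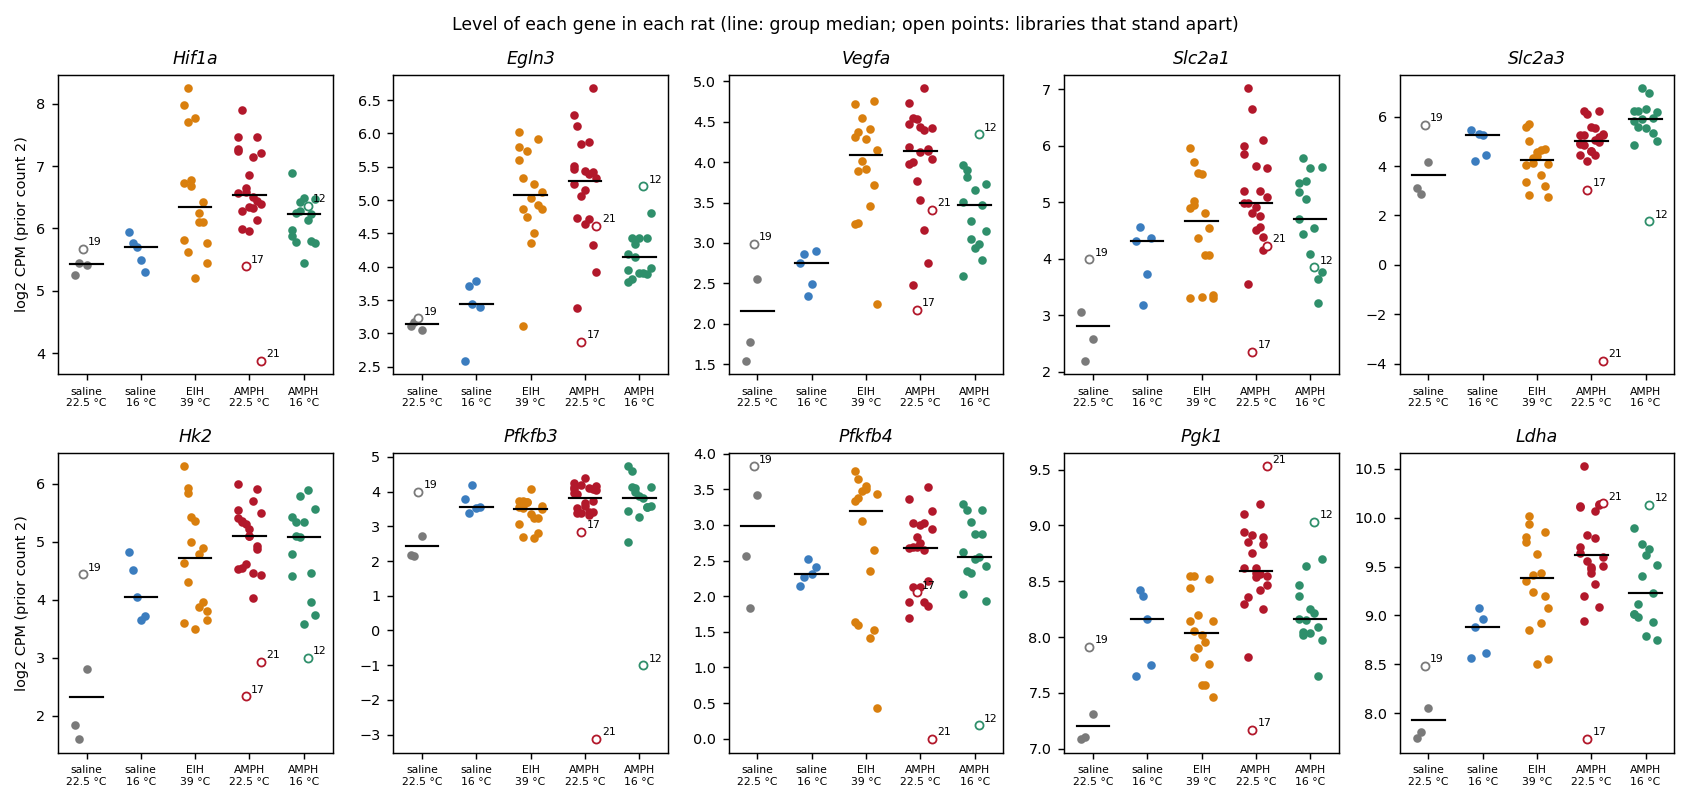
Level of each of the 10 genes in each of the 62 rats, as log2 CPM (vertical axis, prior count 2), by treatment group and environment temperature (horizontal axis); a line marks the group median, and open numbered points mark the 4 libraries that stood apart. Egln3 and Vegfa medians are highest in the EIH and AMPH hyperthermic groups, and Slc2a3 (ENSRNOG00000008376) is highest in the AMPH normothermic group.

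Hif1a encodes the oxygen-regulated subunit itself. Its level was 38.3, 43.7, 50.9 and 42.7 CPM in saline controls 17, 18, 19 and 21, and 61.8, 54.3, 51.9, 45.1 and 39.6 CPM in saline cool rats 1 to 5. It ran from 36.9 to 304.2 CPM (median 80.9) in EIH, from 14.7 to 237.7 (median 92.6) in AMPH hyperthermic and from 43.3 to 118.9 (median 75.0) in AMPH normothermic rats. Thus 20 of 22 AMPH hyperthermic and 13 of 16 EIH rats exceeded every saline control, while the 4 highest EIH rats, at 208.4, 218.4, 251.3 and 304.2 CPM, stood apart from the next at 109.6 CPM. The log2 fold change against saline control was 1.28 (SE 0.42, adjusted p = 0.0375) in AMPH hyperthermic and 1.39 (SE 0.43, adjusted p = 0.0156) in EIH rats. Against saline cool rats EIH was 1.19 higher (SE 0.38, adjusted p = 0.0251), and 1.43 higher with the project as a term (adjusted p = 0.0437).

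Egln3, the hydroxylase that acts on HIF alpha subunits, had the tightest controls. The saline controls lay at 8.62, 8.93, 9.31 and 8.20 CPM, and the saline cool rats at 5.96, 13.1, 10.8, 13.7 and 10.5 CPM. It ran from 8.60 to 65.1 CPM (median 33.8) in EIH, from 7.26 to 102.5 (median 39.1) in AMPH hyperthermic and from 13.6 to 36.8 (median 17.6) in AMPH normothermic rats. Only AMPH hyperthermic replicate 17 of 22 and EIH replicate 9 of 16 failed to exceed every saline control, and the median of the AMPH normothermic rats lay between those of the saline and the hyperthermic groups, with overlapping ranges. The log2 fold change was 2.20 (SE 0.42, adjusted p = 0.00115) for AMPH hyperthermic and 2.08 (SE 0.42, adjusted p = 0.000658) for EIH against saline control. It was 1.78 (SE 0.38, adjusted p = 0.000716) for EIH against saline cool and 1.06 (SE 0.22, adjusted p = 0.000507) for AMPH hyperthermic against AMPH normothermic rats. Each of these 4 calls held with the project as a term, the largest adjusted p being 0.035. Leaving aside the sparse Slc2a3 row described below, Egln3 had the largest log2 change of the rows between the AMPH environments.

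Vegfa, a secreted growth factor for blood vessels and a classical HIF-1 target, followed Egln3. Its saline controls lay at 2.85, 3.36, 7.90 and 5.78 CPM and its saline cool rats at 6.65, 7.23, 4.98, 5.58 and 7.39 CPM. It ran from 4.67 to 27.1 CPM (median 16.9) in EIH, from 4.45 to 30.2 (median 17.5) in AMPH hyperthermic and from 5.97 to 20.2 (median 11.0) in AMPH normothermic rats. Above every saline rat of their own comparison stood 19 of 22 AMPH hyperthermic rats and 15 of 16 EIH rats, the latter against either saline group. The log2 fold change was 1.76 in both comparisons with saline control (SE 0.37 each, adjusted p = 0.00222 for AMPH hyperthermic and 0.000882 for EIH), 1.40 for EIH against saline cool (SE 0.33, adjusted p = 0.00227) and 0.59 for AMPH hyperthermic against AMPH normothermic (SE 0.20, adjusted p = 0.0279). All 4 were also called with the project as a term, where the last was 0.85 (adjusted p = 0.0223).

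Slc2a1 and Slc2a3 encode the glucose transporters GLUT1 and GLUT3. Only Slc2a1 was called against saline control, and the difference between the 2 genes was not tested. Slc2a1 lay at 8.24, 4.52, 15.8 and 5.91 CPM in the saline controls and at 20.0, 23.7, 9.03, 13.2 and 20.6 CPM in the saline cool rats. It ran from 9.78 to 62.3 CPM (median 25.6) in EIH, from 5.05 to 129.9 (median 31.6) in AMPH hyperthermic and from 9.30 to 55.2 (median 25.9) in AMPH normothermic rats. Its log2 fold change against saline control was 2.24 (SE 0.56, adjusted p = 0.00848) in AMPH hyperthermic and 1.69 (SE 0.54, adjusted p = 0.0198) in EIH rats, and 20 of 22 and 12 of 16 rats exceeded every control. Against saline cool rats the EIH difference was 0.68 (SE 0.46, adjusted p = 0.3).

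Slc2a3 passed the test in no comparison. Its main row, ENSRNOG00000008376, lay at 8.58, 7.27, 50.4 and 17.8 CPM in the saline controls, where replicate 19 stood far above the rest. It lay at 43.3, 18.3, 39.7, 38.3 and 21.7 CPM in the saline cool rats. Its median was 60.2 CPM in AMPH normothermic (3.32 to 142.1), 32.4 in AMPH hyperthermic (0 to 75.7) and 18.7 in EIH rats (6.62 to 52.3). Unlike Egln3 and Vegfa, it was lower in AMPH hyperthermic than in AMPH normothermic rats, by -0.84 on the log2 scale (SE 0.34, adjusted p = 0.0698). That difference was called once AMPH hyperthermic replicate 21 and AMPH normothermic replicate 12 were left out (-0.85, adjusted p = 0.0141), a choice made after seeing the data. The other row of the symbol, ENSRNOG00000049298, had counts in only 11 of the 62 rats and up to 15.2 CPM. Near-identical sequences can share reads between such rows, so each row is uncertain, and the sum of both had medians of 13.7, 38.3, 20.0, 34.4 and 60.2 CPM in saline control, saline cool, EIH, AMPH hyperthermic and AMPH normothermic rats, the same order as the main row.

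Hk2 encodes the hexokinase that traps glucose inside the cell. The saline controls lay at 3.49, 2.96, 21.6 and 6.94 CPM, replicate 19 again far above the rest, and the saline cool rats at 28.1, 22.7, 16.4, 12.5 and 13.1 CPM. It ran from 11.2 to 78.5 CPM (median 26.3) in EIH, from 4.98 to 64.0 (median 34.2) in AMPH hyperthermic and from 7.93 to 59.3 (median 33.9) in AMPH normothermic rats. With the 2 AMPH medians nearly equal, the difference between the AMPH environments was 0.09 (SE 0.28, adjusted p = 0.867). Against saline control, Hk2 was 1.94 higher in AMPH hyperthermic (SE 0.53, adjusted p = 0.0141) and 1.82 higher in EIH rats (SE 0.53, adjusted p = 0.0106) on the log2 scale. Leaving out control 19 together with AMPH hyperthermic replicate 17 moved the first of these to 2.98 (adjusted p = 0.000374).

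Pfkfb3 and Pfkfb4 make fructose 2,6-bisphosphate, the activator of phosphofructokinase, and neither was called in any comparison. Pfkfb3 lay at 4.46, 4.31, 15.8 and 6.52 CPM in the saline controls and at 13.8, 10.4, 18.3, 11.5 and 11.7 CPM in the saline cool rats, and the medians of the other groups were 11.3 (EIH), 14.2 (AMPH hyperthermic) and 14.1 CPM (AMPH normothermic). Its log2 fold change against saline control was 0.81 in AMPH hyperthermic rats (SE 0.45, adjusted p = 0.209), and 1.46 without control 19 and AMPH replicate 17 (adjusted p = 0.0404). Pfkfb4 was the only one of the 10 genes with a higher median in saline control than in saline cool rats, a difference that was not called (adjusted p = 0.607). Its levels were 5.83, 3.51, 14.1 and 10.6 CPM in the saline controls and 4.34, 4.76, 5.67, 4.89 and 5.26 CPM in the saline cool rats, with medians of 9.14 (EIH), 6.35 (AMPH hyperthermic) and 5.80 (AMPH normothermic). EIH rats ranged from 1.27 to 13.5 CPM for Pfkfb4, with 10 of 16 above and 5 below every saline cool rat, and with 0 above and 5 below every saline control.

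Pgk1 (phosphoglycerate kinase, a step that yields ATP) and Ldha (lactate dehydrogenase A, which turns pyruvate into lactate) had correlated levels, as given below. Pgk1 lay at 135.9, 137.1, 240.9 and 158.8 CPM in the saline controls and at 200.5, 341.8, 329.7, 286.4 and 215.5 CPM in the saline cool rats. Its medians were 262.6 (EIH, 176.8 to 375.0), 386.8 (AMPH hyperthermic, 144.0 to 738.2) and 286.5 CPM (AMPH normothermic, 200.5 to 523.8). It was the only row called between the drug and heat, with AMPH hyperthermic rats higher than EIH rats by 0.59 (SE 0.14, adjusted p = 0.00453). That was 1 row of 11, beside a background of 8.65%, and with the project as a term the difference was 0.56 (adjusted p = 0.0681) beside a background of 1.57%. Against saline control the log2 change was 1.28 (SE 0.24, adjusted p = 0.00115) in AMPH hyperthermic and 0.69 (SE 0.24, adjusted p = 0.03) in EIH rats.

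Ldha lay at 214.2, 223.5, 358.4 and 265.3 CPM in the saline controls and at 379.7, 471.5, 540.7, 499.5 and 392.6 CPM in the saline cool rats. It ran from 363.6 to 1033 CPM (median 666.0) in EIH, from 213.4 to 1471 (median 787.0) in AMPH hyperthermic and from 430.6 to 1122 (median 598.5) in AMPH normothermic rats. All 16 EIH rats and 21 of 22 AMPH hyperthermic rats lay above every saline control, the exception being AMPH hyperthermic replicate 17. All 5 saline cool rats also lay above every saline control, a difference of 0.78 on the log2 scale (SE 0.32) that was not called (adjusted p = 0.42). Against saline control, Ldha was 1.66 higher in AMPH hyperthermic (SE 0.29, adjusted p = 0.000651) and 1.36 higher in EIH rats (SE 0.29, adjusted p = 0.000958).

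No effect of the drug at 16 °C passed the test for any of the genes. Between AMPH normothermic and saline cool rats edgeR called 0 of the 11 rows and 0 of all genes (background 0%), with 3 rows and 1268 genes at an unadjusted p under 0.05. DESeq2 called 104 genes and 0 of the 11 rows. The estimates were above 0 for 10 of 11 rows, with a median of 0.55 against 0.06 over all genes. Egln3 was 0.83 higher (SE 0.36, adjusted p = 0.469), Vegfa 0.81 higher (SE 0.32, adjusted p = 0.412) and Ldha 0.55 higher (SE 0.25, adjusted p = 0.51), with 14, 13 and 9 of 15 rats above every saline cool rat.

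The difference between the drug effects at 22.5 °C and 16 °C was tested directly. None of the 11 rows was called, beside a background of 0.0709%, although 5 rows and 1416 of the 14111 genes had an unadjusted p under 0.05 in edgeR. The estimates were largest for Slc2a1 (1.47, SE 0.66), Egln3 (1.36, SE 0.50), Hk2 (1.18, SE 0.63), Ldha (1.11, SE 0.36) and Pgk1 (1.09, SE 0.31, adjusted p = 0.116), leaving aside the sparse row of Slc2a3. DESeq2 called 1 row, Pgk1 (adjusted p = 0.03), beside a background of 1.2%. Without saline control 19 and AMPH hyperthermic replicate 17, edgeR called 3 rows, Pgk1 (1.38, adjusted p = 0.00554), Ldha (1.36, adjusted p = 0.0207) and Hk2 (2.23, adjusted p = 0.0457), beside a background of 2.42%. With the project as a term, 0 rows and 0 genes were called (background 0%), with 2 rows and 935 genes at an unadjusted p under 0.05.

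Environment alone was compared in the saline groups. The 16 °C and 22.5 °C saline rats gave 0 called rows and 0 called genes (background 0%) in edgeR, with 2 rows, Pgk1 and Ldha, and 1310 genes at an unadjusted p under 0.05, and DESeq2 called 89 genes and none of the rows. With the project as a term 1 gene of all was called, a background of 0.00709%, and no row. No project held both of these groups, so temperature and project cannot be told apart here. Without saline control 19 and AMPH hyperthermic replicate 17, Hk2 (2.07, adjusted p = 0.0411) and Pgk1 (0.95, adjusted p = 0.0415) were called higher at 16 °C, beside a background of 2.86%. At 39 °C against 16 °C, 3 rows were higher, Egln3, Hif1a and Vegfa, beside a background of 18.1%, and the same 3 rows were called with the project as a term, beside a background of 7.71%. The project of the saline cool rats held 1 EIH rat. The estimates with the project thus rest directly on that rat and otherwise on links through other groups. Without saline cool replicate 2, 3, 4 or 5, only 2 rows were called, beside backgrounds of 10.4% to 11.3%. Without the project term, Pgk1 was at -0.02 at 39 °C against 16 °C (SE 0.21, adjusted p = 0.958).

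Between the 2 AMPH environments, 3 rows were higher in the hyperthermic rats, Egln3, Vegfa and Pgk1, beside a background of 19.5%. The median over the 11 rows was 0.38 against 0.01 over all genes. With the project as a term the calls were Egln3 and Vegfa, beside a background of 11.0%, and Pgk1 was at 0.47 (adjusted p = 0.06). Hif1a itself was 0.55 higher (SE 0.24, adjusted p = 0.0946), and it was called at 0.64 (adjusted p = 0.0358) once AMPH hyperthermic replicate 21 and AMPH normothermic replicate 12 were left out. For the drug at 16 °C against saline at 16 °C, the project term left the background at 0% and the rows called at 0, with 3 rows and 1450 genes at an unadjusted p under 0.05.

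**Figure D2:**
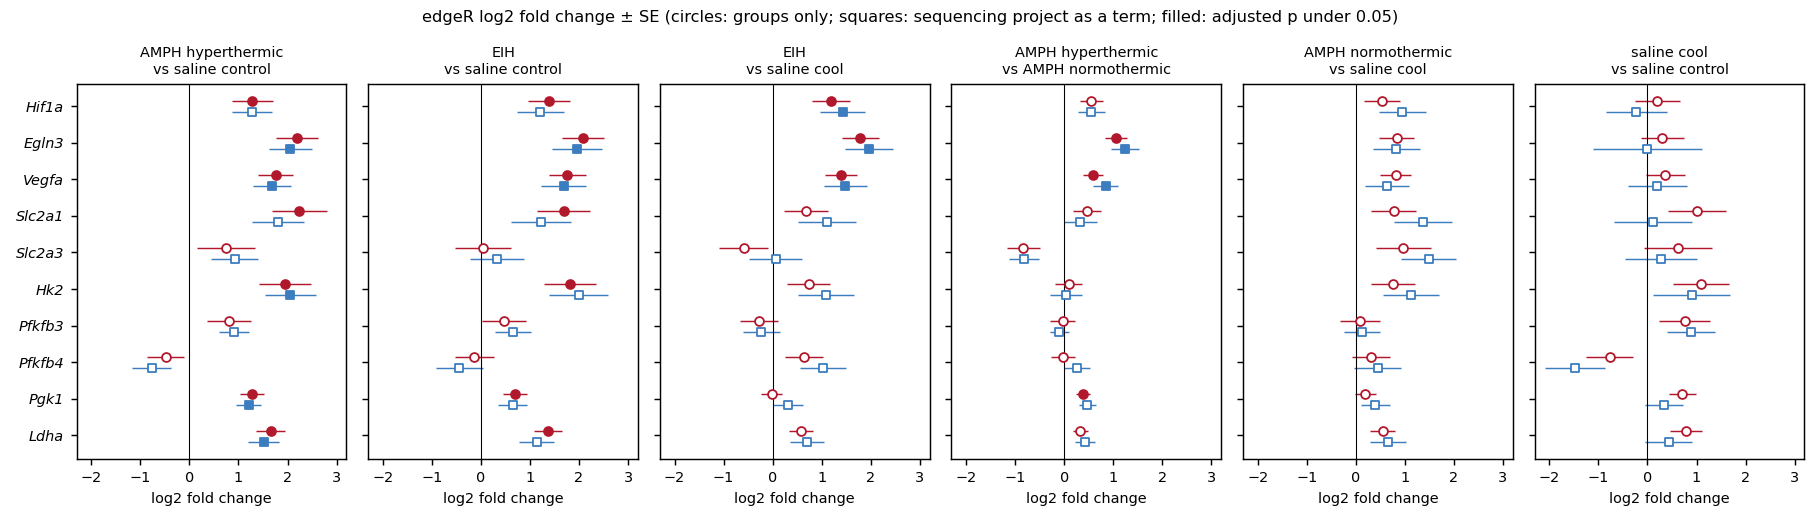
Log2 fold change with its SE (horizontal axis) of each gene (vertical axis) in 6 comparisons, from edgeR with the groups only (circles) and with the sequencing project as a term (squares); filled symbols have an adjusted p under 0.05. Slc2a3 is ENSRNOG00000008376. Egln3 and Vegfa are filled in both fits in the first 4 panels, and no symbol is filled in the last 2 panels.

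A single project held 3 saline controls and 6 AMPH hyperthermic rats, which allowed a comparison free of project. Hk2 was 2.20 higher on the log2 scale (exact permutation test, two-sided, p = 0.0476, with 0.0238 the smallest p possible) and Hif1a 0.97 higher (exact permutation p = 0.0714). Egln3 was 1.39 higher (exact permutation p = 0.167) and Ldha 1.23 higher (exact permutation p = 0.0952), each with 5 of the 6 AMPH rats above all 3 controls. Vegfa was 1.39, Pgk1 0.99 and Slc2a1 1.27 higher (exact permutation p = 0.119, 0.119 and 0.167). The main Slc2a3 row was 1.22 and Pfkfb3 0.99 higher (exact permutation p = 0.262 and 0.119), near the values of Slc2a1 and Pgk1. Pfkfb4 went the other way, at -0.50 (exact permutation p = 0.286). These p were not adjusted over the 11 rows, and only that of Hk2 was under 0.05. Without control 19 and AMPH replicate 17 the log2 differences of the 7 rows called in the whole fit ran from 1.28 (Hif1a) to 3.61 (Hk2). These rats were set aside for their levels in these same genes, so the larger differences are given as a description, with no test.

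Coordination between the genes was examined within the 3 groups of at least 6 rats, as correlations of log2 CPM across rats over 55 pairs of rows per group and 165 in all. The median Pearson r was 0.47 in EIH, 0.36 in AMPH hyperthermic and 0.28 in AMPH normothermic rats, and 0.44, 0.56 and 0.36 after centring on the project in the 12, 16 and 11 rats that shared a project with another rat of their group. By permutation tests (100000 resamples, two-sided, adjusted over the 165 pairs) 11, 22 and 11 pairs were positively correlated in those groups, and 0, 0 and 5 negatively. The median r and the share of such pairs over all genes were not computed. These counts therefore do not show coordination beyond that of other blood genes. Without AMPH hyperthermic replicates 17 and 21 the median r of that group was 0.22. Among the negative pairs of AMPH normothermic rats, Egln3 with Pfkfb4 had an r of -0.708 and Pfkfb4 with Pgk1 of -0.685. Without replicate 12 of that group these were -0.348 and -0.37, and after centring on the project 0.301 and -0.045. Neither passed by rho (adjusted permutation p = 0.0614 and 0.355). The other negative pairs held the sparse Slc2a3 row and are given below. The rats of a group share project, depth and cell makeup to different degrees, and these were not separated.

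Ldha and Pgk1 were the pair with the highest r that held in every group. Their r was 0.84 in EIH (rho 0.80), 0.89 in AMPH hyperthermic (rho 0.81) and 0.75 in AMPH normothermic rats (rho 0.80), with adjusted permutation p of 0.00099, 0.000412 and 0.00904 for r and of 0.0044, 0.00066 and 0.00619 for rho. Without the 2 rats farthest from the median of Ldha, r was 0.76, 0.85 and 0.63, and after centring on the project it was 0.87, 0.95 and 0.55. Egln3 with Pgk1 had r of 0.70, 0.70 and 0.73 (rho 0.86, 0.66 and 0.46; adjusted permutation p of 0.00956, 0.00374 and 0.0153 for r and 0.00099, 0.0103 and 0.185 for rho). In both AMPH groups that r depended on which rats were left out. Without the 2 rats farthest from the Egln3 median r fell to 0.37 in AMPH hyperthermic and 0.30 in AMPH normothermic rats, against 0.83 in EIH. Without the libraries that stood apart it was 0.76 in AMPH hyperthermic and 0.52 in AMPH normothermic rats. After centring on the project r was 0.66 in EIH, 0.93 in AMPH hyperthermic and -0.28 in AMPH normothermic rats. Hif1a and Hk2 had r of 0.91 in EIH (rho 0.90) and 0.80 in AMPH hyperthermic rats (rho 0.73; adjusted permutation p of 0.000412 and 0.000733 for r, 0.00066 and 0.00279 for rho), and 0.87 and 0.78 without the 2 rats farthest from the Hif1a median. In AMPH normothermic rats the same pair had an r of 0.28 (rho 0.29; adjusted permutation p = 0.388 and 0.455). This pair was picked after its values were seen.

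Pfkfb4 and the main Slc2a3 row had r of 0.75, 0.74 and 0.80 in EIH, AMPH hyperthermic and AMPH normothermic rats (rho 0.68, 0.34 and 0.43; adjusted permutation p of 0.00556, 0.0267 and 0.0393 for r, and 0.0283, 0.23 and 0.218 for rho). Without the 2 rats farthest from the Pfkfb4 median these were 0.82, 0.26 and 0.25, so in the AMPH groups the relation rested on those rats. AMPH hyperthermic replicate 21 and AMPH normothermic replicate 12 were low in Pfkfb3, Pfkfb4 and Slc2a3, and without the libraries that stood apart r was 0.14 and 0.28. The 3 pairs with the lowest r all held the sparse Slc2a3 row ENSRNOG00000049298, with Pfkfb3 (-0.84), the main Slc2a3 row (-0.79) and Pfkfb4 (-0.76) in AMPH normothermic rats. Only 2 rats of that group had any counts in the sparse row, and replicate 12 was one of them.

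**Figure D3:**
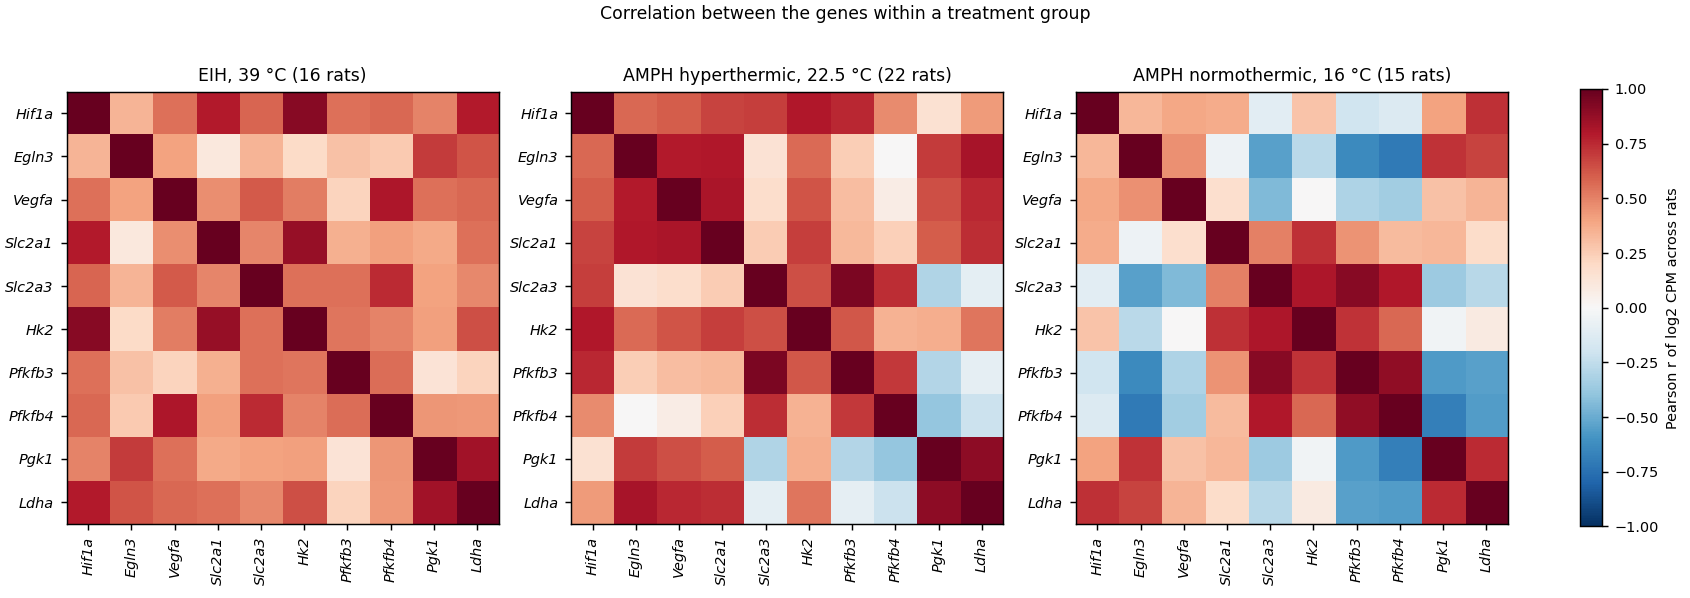
Pearson r of log2 CPM (colour, from -1 to 1) between the 10 genes across the rats of each of the 3 larger groups, with Slc2a3 as ENSRNOG00000008376. In EIH rats every pair shown is positive, whereas in AMPH normothermic rats Pfkfb3 and Pfkfb4 are negative against Pgk1 and Ldha; replicate 12 of that group has the lowest Pfkfb3 and Pfkfb4 and the highest Pgk1 and Ldha.

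The genes whose levels were most like each member, by Pearson r over 62 rats after group means were subtracted from log2 CPM, are given as a description among 14110 other genes. Vegfa was closest to Ndrg1 (0.83), Gys1 (0.79) and Ero1l (0.76), and Pgk1 to Eno1 (0.89) and Tpi1 (0.87). Hk2 was closest to Rbm47 (0.90), Csf2rb (0.90) and Nos2 (0.89), and Hif1a to Samsn1, Wsb1 and Acsl4 (0.91, 0.90 and 0.89). Ldha and the unnamed row ENSRNOG00000009373 had an r of 0.97, and that row was also the next closest to Pgk1 after Tpi1 (0.86). Whether these rows share reads was not tested. Egln3 was closest to Sdcbp (0.77), Slc2a1 to Sbno2 (0.78), Pfkfb3 to Pak2 (0.94), Pfkfb4 to Aim1 (0.83) and the main Slc2a3 row to Pstpip2 (0.92). The rats share project, depth and cell makeup to different degrees, and no p is given.

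Other genes of glycolysis were examined as a list of 21 symbols, 19 of which were tested (Pkm2 and Tigar were not). In AMPH hyperthermic against saline control rats 11 of 19 were higher and none lower, where 11.2% of all genes were called, with a median of 1.15 against -0.001 over all genes. Of the 11, 6 were called with the project as a term, Aldoa, Eno1, Gapdh, Gpi, Pgam1 and Tpi1. Tpi1, the triose phosphate isomerase, rose by 2.21 (SE 0.40, adjusted p = 0.000837), Pgam1, the phosphoglycerate mutase, by 1.73 (SE 0.32, adjusted p = 0.00103), Aldoa, the aldolase, by 1.70 (SE 0.31, adjusted p = 0.00082) and Eno1, the enolase, by 1.195 (SE 0.24, adjusted p = 0.00143). In EIH against saline control, with 24.7% of all genes called, 9 of 19 were higher and none lower, and 0 of the 9 were called with the project as a term. The smallest adjusted p was that of the lactate and pyruvate transporter Slc16a1 (2.05, SE 0.43, adjusted p = 0.00085; 1.06 with the project, adjusted p = 0.169).

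Against the 16 °C saline rats 2 of 19 were higher in EIH, Slc16a1 and Hk1, where 18.1% of all genes were called. Neither was called with the project as a term (adjusted p = 0.0645 and 0.621), and Gpi was (0.96, adjusted p = 0.0353), named after its values were seen. Between AMPH hyperthermic and AMPH normothermic rats 4 were higher and 4 lower, where 19.5% of all genes were called. Gpi (0.81, adjusted p = 2.69e-05) and Pfkl (0.81, adjusted p = 0.0013), an isomerase and the liver-type phosphofructokinase, were higher. Ldhb (-1.58, adjusted p = 0.00224), the heart-type lactate dehydrogenase, and Bpgm (-0.74, adjusted p = 0.00889), the enzyme of red cells that makes 2,3-bisphosphoglycerate, were lower. With the project as a term Gpi and Pfkl were called and Ldhb and Bpgm were not (adjusted p = 0.206 and 0.131). All 6 heart muscle markers were also lower in the hyperthermic AMPH rats. Their sum had medians of 1.93 CPM in hyperthermic and 5.15 CPM in normothermic AMPH rats, with highest values of 81.85 and 3296 CPM. Whether these markers bear on the Ldhb difference was not tested. In AMPH hyperthermic against EIH rats 5 were higher and 2 lower, where 8.65% of all genes were called, and 1 of these was called with the project as a term, Tpi1 at 1.13 (SE 0.21, adjusted p = 0.000913; 1.202 with the project, adjusted p = 0.00737). For the drug at 16 °C, for the saline groups and for the difference of drug effects 0 of 19 were called.

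Other genes of the hypoxia pathway were a list of 26 symbols, 23 of which were tested (Hif3a, Adm and Car9 were not). In AMPH hyperthermic against saline control rats 10 of 23 were higher and none lower, where 11.2% of all genes were called, with a median of 0.90, and 6 of the 10 were called with the project as a term. P4ha1, the collagen prolyl hydroxylase, rose by 3.22 (SE 0.55, adjusted p = 0.000473), Plin2, a lipid droplet protein, by 2.02 (SE 0.44, adjusted p = 0.00322), Ero1l, an oxidase of the endoplasmic reticulum, by 1.30 (SE 0.30, adjusted p = 0.00567) and Kdm3a, a histone demethylase, by 1.08 (SE 0.26, adjusted p = 0.0071). These 4 were among the 6. In EIH against saline cool rats, with 18.1% of all genes called, 9 of 23 were higher and 2 lower, and 6 of these 11 were called with the project as a term. P4ha1 (2.90, adjusted p = 3.42e-05), the heme oxygenase Hmox1 (3.79, adjusted p = 0.000475) and Kdm3a (1.04, adjusted p = 0.00191) rose and were called with the project too, and Hif1an, the asparaginyl hydroxylase that inhibits HIF, was 0.96 higher (adjusted p = 0.00412; 0.53 with the project, adjusted p = 0.333).

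In EIH against saline control 7 of 23 were higher, a share near the 24.7% of all genes called. Of the 7 only P4ha1 (3.38, adjusted p = 8.17e-05) was called with the project as a term (adjusted p = 0.0173), and Hmox1 (4.26, adjusted p = 0.000769) was not (adjusted p = 0.0514). Between the AMPH environments, with 19.5% of all genes called, 6 were higher in the hyperthermic rats, with P4ha1 at 1.61 (adjusted p = 2.71e-05), Kdm3a at 0.80 (adjusted p = 8.58e-05) and Hmox1 at 1.93 (adjusted p = 0.000711), and 2 were lower, Mxi1 (-0.996, adjusted p = 1.74e-05), a repressor of MYC targets, and the mitophagy receptor Bnip3l, named after its values were seen. In AMPH hyperthermic against EIH rats, with 8.65% of all genes called, 4 were higher and 1 lower, the former with Pdk1 (0.89, adjusted p = 0.00178), which holds pyruvate back from the mitochondrion, Egln1 (0.57, adjusted p = 0.003) and Ero1l (0.76, adjusted p = 0.00308). As for glycolysis, 0 of 23 were called for the drug at 16 °C, between the saline groups or for the difference of drug effects.

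**Figure D4:**
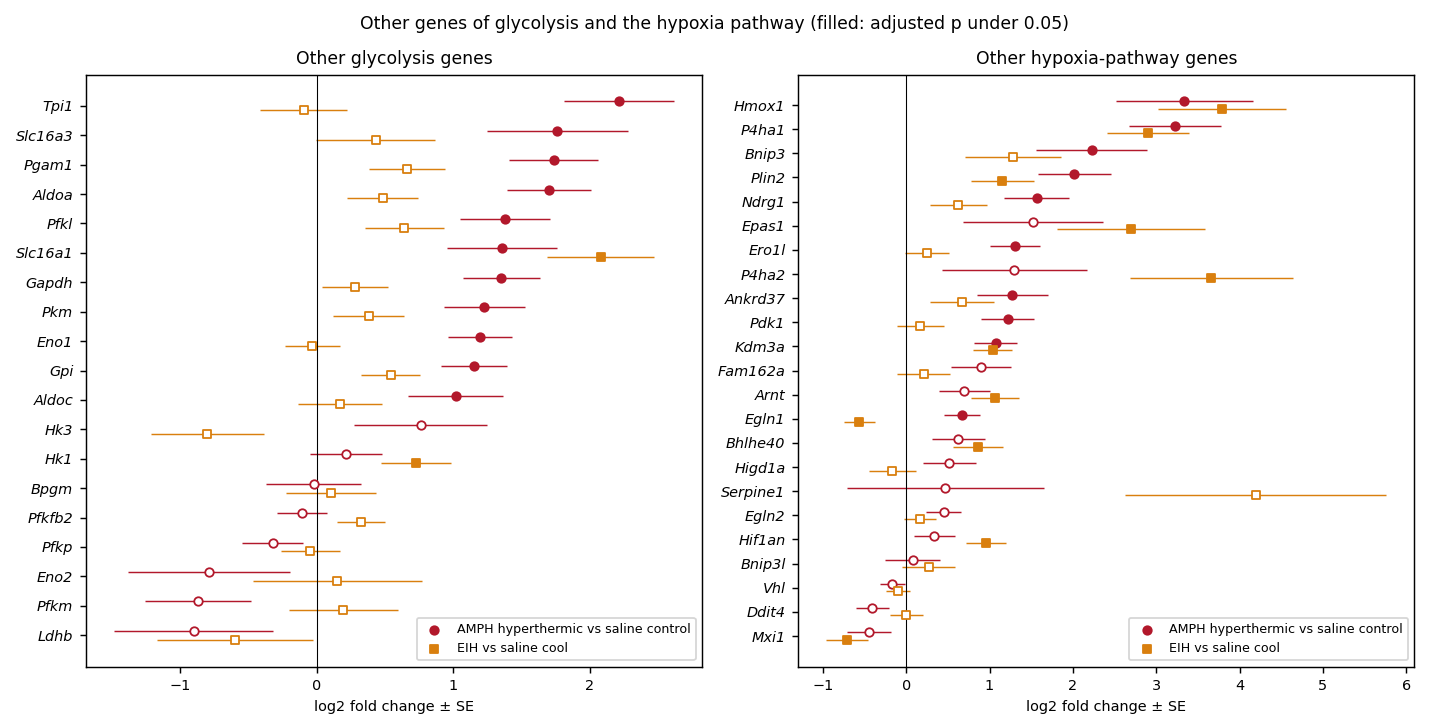
Log2 fold change with SE (horizontal axis) of the 19 other glycolysis genes and 23 other hypoxia-pathway genes (vertical axes) in AMPH hyperthermic against saline control rats (circles) and in EIH against saline cool rats (squares), with filled symbols at an adjusted p under 0.05. For glycolysis 11 circles and 2 squares are filled, and for the hypoxia pathway 10 circles and 11 squares.

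Blood cell markers moved with the groups as well. The summed CPM of 8 neutrophil markers ran from 1291 to 15810 (median 4666) in saline control, 13110 to 29970 (median 20690) in saline cool, 2150 to 12140 (median 7546) in EIH, 1881 to 36040 (median 12300) in AMPH hyperthermic and 8923 or more (median 16260) in AMPH normothermic rats. The sum of 7 monocyte markers had medians of 260.5, 410.8, 537.2, 518.8 and 533.5 CPM in the same order. Its ranges were 186.3 to 433.1, 318.5 to 568.3, 192.3 to 1070, 204.8 to 810.4 and 348.0 to 655.8 CPM. The sum of 8 T cell markers had medians of 351.0, 259.3, 116.6, 184.6 and 188.6 CPM, with ranges of 304.0 to 455.7, 234.3 to 307.8, 58.8 to 296.5, 55.8 to 487.6 and 96.2 to 310.7 CPM. For 5 B cell markers the medians were 413.5, 372.5, 218.6, 209.7 and 157.6 CPM. Their ranges were 154.9 to 589.5, 234.3 to 434.6, 62.0 to 477.6, 89.1 to 592.9 and 67.9 to 314.6 CPM. In EIH against saline control all 8 T cell markers fell and 1 neutrophil and 3 of 7 monocyte markers rose, and in AMPH hyperthermic against saline control 5 T cell markers fell and 1 neutrophil and 2 monocyte markers rose. Of the 7 rows of NK cell markers 4 fell in EIH and 5 in AMPH hyperthermic rats against saline control, and 4 were lower in AMPH hyperthermic than in AMPH normothermic rats. In EIH against saline cool 6 T cell, 3 NK cell and 3 neutrophil markers fell and 1 monocyte marker rose. The shares of all genes called were 24.7% and 11.2% against saline control in EIH and AMPH hyperthermic rats, 19.5% between the AMPH environments and 18.1% in EIH against saline cool. All 5 platelet markers rose in EIH and 2 in AMPH hyperthermic rats against saline control. The 7 erythroid rows summed to medians of 60610, 72810, 131900, 50640 and 91710 CPM, with 1 row called higher in EIH (against either saline group) and none in AMPH hyperthermic against saline control rats. No marker stood at 0 in every rat of a group.

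The part of these cells in the gene results was not tested, but the levels went together across rats. With the monocyte sum, Hif1a had r of 0.88 in EIH, 0.73 in AMPH hyperthermic and 0.68 in AMPH normothermic rats (rho 0.89, 0.85 and 0.62; adjusted permutation p of 0.00055, 0.00825 and 0.0228 for r and 0.00165, 0.00165 and 0.0558 for rho, over 165 relations with 5 marker sums). Without the 2 rats farthest from the median monocyte sum r was 0.86, 0.77 and 0.48, and after centring on the project 0.89, 0.82 and 0.72. Positive correlations with the monocyte sum at an adjusted p under 0.05 were found for 7 of 11 rows in EIH, 6 in AMPH hyperthermic and 1, Hif1a, in AMPH normothermic rats, and the share over all genes was not computed. Ldha was among them in the first 2 groups (r of 0.75 and 0.79; rho 0.72 and 0.59; adjusted permutation p of 0.00754 and 0.00436 for r and 0.0186 and 0.0258 for rho), the latter falling to 0.39 without the 2 farthest rats. With the neutrophil sum, Vegfa had an r of 0.92 in EIH rats (rho 0.80; adjusted permutation p = 0.00055 and 0.00765; 0.83 without the 2 farthest rats, 0.94 centred) and of 0.19 in AMPH hyperthermic rats (rho -0.05; adjusted permutation p = 0.51 and 0.884), a difference that was not tested. Such relations were not particular to monocytes. In EIH rats Hif1a, Hk2, Ldha, Pfkfb4, Pgk1, Slc2a1 and the main Slc2a3 row also passed with the neutrophil sum. For Hif1a that r was 0.74 (adjusted permutation p = 0.00754). In AMPH hyperthermic rats Hif1a, among others, was negative against the T cell sum (r of -0.73, adjusted permutation p = 0.00436). Slc2a1, among others, was negative against the B cell sum there (r of -0.81, adjusted permutation p = 0.00055).

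**Figure D5:**
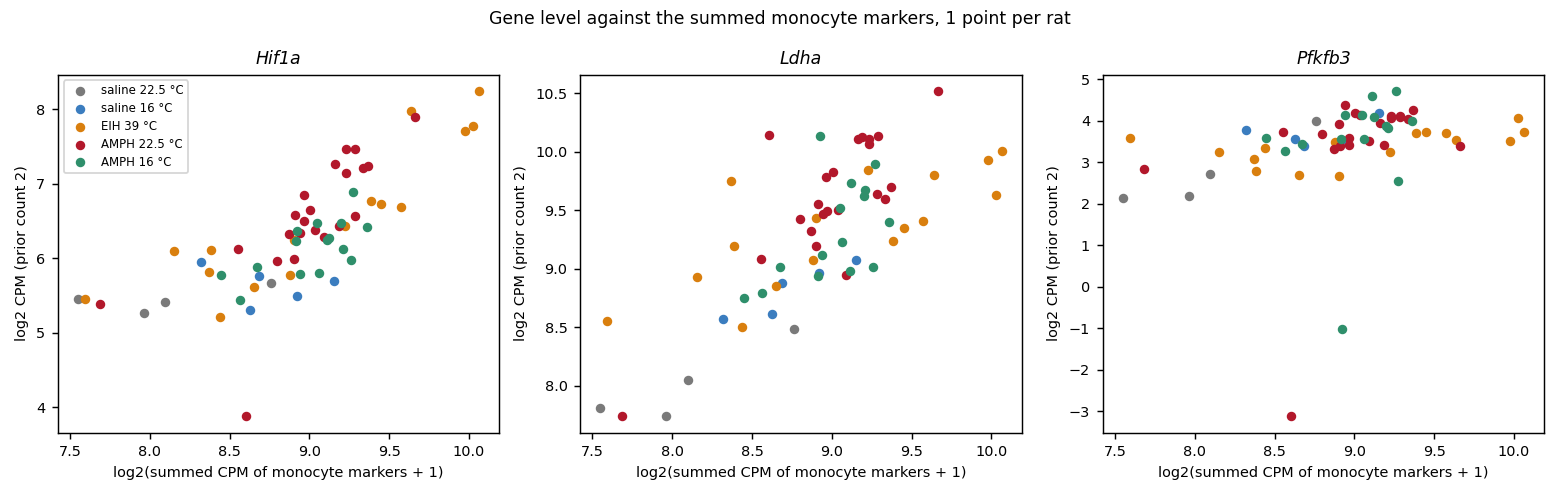
Log2 CPM of Hif1a, Ldha and Pfkfb3 (vertical axes) against the log2 sum of the 7 monocyte markers plus 1 (horizontal axis), 1 point per rat, coloured by group. Hif1a and Ldha are higher where the sum is higher, and the lowest points for Pfkfb3 are AMPH hyperthermic replicate 21 and AMPH normothermic replicate 12.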

How the data were processed

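Per the labels, the authors' notes name CASAVA 1.8.2, Bowtie 0.12.9 and RSEM 1.2.0 and the rat build rn5. The authors deposited RSEM expected counts per gene and rat, neither normalized nor rounded, and these were rounded to whole numbers. The files list different genes, and a gene was fitted where all of them list it. Total counts were 19055615 to 40530319, and the biological coefficient of variation between rats was 0.517. Nothing in the labels ties rats to litters or cages. The closest pair of rats in a group still had a mean chi-square of 52.4 per gene, so no library appeared to be a repeat of another.

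1 edgeR 4.0.16 fit (R 4.3.3; TMM, robust quasi-likelihood) of the 5 groups gave all contrasts, an SE being the log2 fold change divided by the square root of F. Log2 CPM used a prior count of 2. DESeq2 1.42.0, other scaling and filters, the project, the replicate block and left-out rats were alternatives. Leaving out rats over 5000 Mb counts in every group, AMPH hyperthermic replicate 21 with AMPH normothermic replicate 12, and rats that stood apart from the correlations was added after the data were seen. The genes and lists were chosen with earlier results of these data known. Of other genes, up to 4 with the smallest adjusted p per list and comparison were named, with exceptions stated, and up to 3 of the most alike genes per member. Correlations were computed with scipy 1.17.1 and numpy 2.4.6 under Python 3.11.15, tables with pandas 2.3.3 and plots with matplotlib 3.10.9. The functions were tested on simulated data. Rats sharing a replicate number in different groups had a mean correlation of deviations of 0.074 (65 pairs, from -0.37 to 0.66), against -0.001 for different numbers. It was over 0.1 in 27 of the 65 pairs, against 460 of 1354 for different numbers. Whether the numbers pair the rats was not tested, and the main fit did not pair them.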

Additional observations from a re-analysis of the deposited data

Results flagged for a closer look

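The sparse Slc2a3 row ENSRNOG00000049298 had a single rat far from the rest in each of the small groups. Saline control replicate 21 had 1.06 CPM and saline cool replicate 2 had 14.7 CPM, where every other rat of its group had 0. These were the 2 flags among 22 combinations of row and group examined, and chance flags about 1 in 20 where values spread continuously. With every other rat at 0, any count is flagged whatever its size, so that rate does not apply to this row.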

How the results depend on the processing

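Whether the replicate numbers pair the rats was not tested. With the replicate block 0 rows were called in AMPH hyperthermic and 0 in EIH against saline control, 2 in EIH against saline cool, 0 in AMPH normothermic against saline cool and 0 between the saline groups, with 2 between the AMPH environments, 1 for AMPH hyperthermic against EIH and 0 for the difference of drug effects. The shares of all genes called were 0.0283%, 0%, 16.4%, 0.12%, 0.00709%, 17.9%, 2.96% and 0% in that order. With the project as a term 2 rows remained called in EIH against saline control and 0 in AMPH hyperthermic against EIH. With only the W series AMPH hyperthermic rats (the ID form of the controls) 4 were called against saline control and 1 against AMPH normothermic. The shares of all genes called there were 1.17% and 4.68%. Single saline rats and AMPH hyperthermic replicates 17 and 21 were left out in turn, and no other rat singly. This gave 4 to 7 rows in AMPH hyperthermic and 3 to 7 in EIH against saline control. The lowest came without saline control replicate 17 or 18, and were 5 and 5 without replicate 21, where 3.53% and 16.2% of all genes were called. In EIH against saline cool, 3 rows were called without saline cool replicate 1 and 2 without replicate 2, 3, 4 or 5. Those fits called 13.2%, 11.3%, 10.4%, 10.7% and 11.0% of all genes in turn. For the difference of drug effects, leaving out single rats gave 0 to 1, the 1 row without saline control replicate 19 or AMPH hyperthermic replicate 17, and DESeq2 and all 6 saline controls also gave 1. The shares of all genes called were 1.18% and 0.789% without each of those rats, 1.2% in DESeq2 and 2.15% with all 6 controls. Without both of those rats 3 rows were called, and 2 rows between the saline groups. Without AMPH hyperthermic replicate 21 and AMPH normothermic replicate 12, 5 rows were called between the AMPH environments and 2 in AMPH hyperthermic against EIH. The shares of all genes called there were 20.7% and 10.1%. With rats over 5000 Mb counts left out in every group, 4 rows were called between the AMPH environments, 3 higher and 1 lower. In that fit 15.6% of all genes were called. The cause of these changes was not tested. No called row changed sign. Over all alternatives, the 21 called results stayed called 256 times and were lost 58 times, 16 of them under the replicate block and 9 under the project.

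With 4 saline controls in 2 projects and saline cool rats in 1, a row that missed the threshold is not shown to be unchanged.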
